A study of Mus musculus with 8 samples.

Results

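Calcium-binding protein genes of neurons and hair cells were described in mouse cochlea with and without the microRNA genes Mir183 and Mir96. The 8 genes were Calb2, Calb1, Pvalb, Pcp4, Vsnl1, S100a1, Ncald and Hpcal1, out of 22180 genes that the array measured with a feature linked to exactly 1 symbol. They were chosen by name with the knockout and control values of these same arrays known, so their genotype differences are given here as a description, with no test. Each gene had 1 feature.

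The study hybridised 8 arrays of mouse cochlea at postnatal day 16, 4 from miR-183/96 knockout animals and 4 from animals labelled control. Each array held RNA of the whole encapsulated cochlea, with both ears of 1 animal pooled. The labels leave out how the knockout allele was made, the strain, the sex and what genotype the control animals carried. Values are RMA gene-level log2 expression values as deposited, on which a difference of 1 is a 2-fold change.

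Calcium-binding proteins of the EF-hand class hold calcium in paired helix-loop-helix motifs. Some act as buffers that take up calcium as it enters through channels, and others as sensors that bind a partner protein or the membrane once they hold calcium. In the cochlea, calretinin, calbindin and parvalbumin are long-used markers of hair cells and of spiral ganglion neurons, whose calcium currents drive transmitter release at the ribbon synapse. Several of these genes are also expressed outside the sensory pathway, parvalbumin and S100A1 strongly so in striated muscle.

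The microRNAs of the targeted cluster are shown because they define the comparison. RefSeq places all 3 on the minus strand of chromosome 6 in build GRCm38.p6, and the seed, bases 2 to 8 from the 5′ end, is in capitals.
mmu-miR-183-5p: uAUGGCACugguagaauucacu
mmu-miR-96-5p: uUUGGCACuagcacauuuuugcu
mmu-miR-182-5p: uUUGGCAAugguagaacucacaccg
Their positions are chr6:30169711-30169732 for miR-183-5p, chr6:30169506-30169528 for miR-96-5p and chr6:30165962-30165986 for miR-182-5p. The seeds of miR-183-5p and miR-96-5p share 6 of 7 bases and differ by A2U. Those of miR-96-5p and miR-182-5p also share 6 of 7 and differ by C8A. Mir182, which the knockout's name does not include, is the remaining gene of the cluster.

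The Mir96 feature separated the groups as the labels state. It read 4.01, 4.26, 4.26 and 4.31 in knockout replicates 1 to 4 and 5.71, 5.26, 6.23 and 5.57 in control replicates 1 to 4. The Mir183 feature was dim and read 1.82 to 2.40 in knockout and 2.23 to 2.84 in control animals, so it checks nothing.

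Of the 8 genes, Calb2, Calb1, Pcp4 and Vsnl1 were lower in every knockout animal than in every control animal, with log2 differences of -1.60, -1.08, -1.04 and -0.81. Pvalb was also lower on average, at -0.96, but its groups overlapped. Hpcal1 and S100a1 differed by -0.30 and -0.17, and Ncald by 0.15, each with overlap. Groups lay apart in that lower direction at 2.65% of the 23521 features tested. In the limma fit over all features, 1 of the 8 genes, Calb2, passed the adjusted threshold of 0.05, and 0.0128% of features passed as lower. The genes were chosen from this contrast, so nothing is read from either count. The median difference was -0.89 over the 8 genes and 0.01 over all features.

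**Figure D1:**
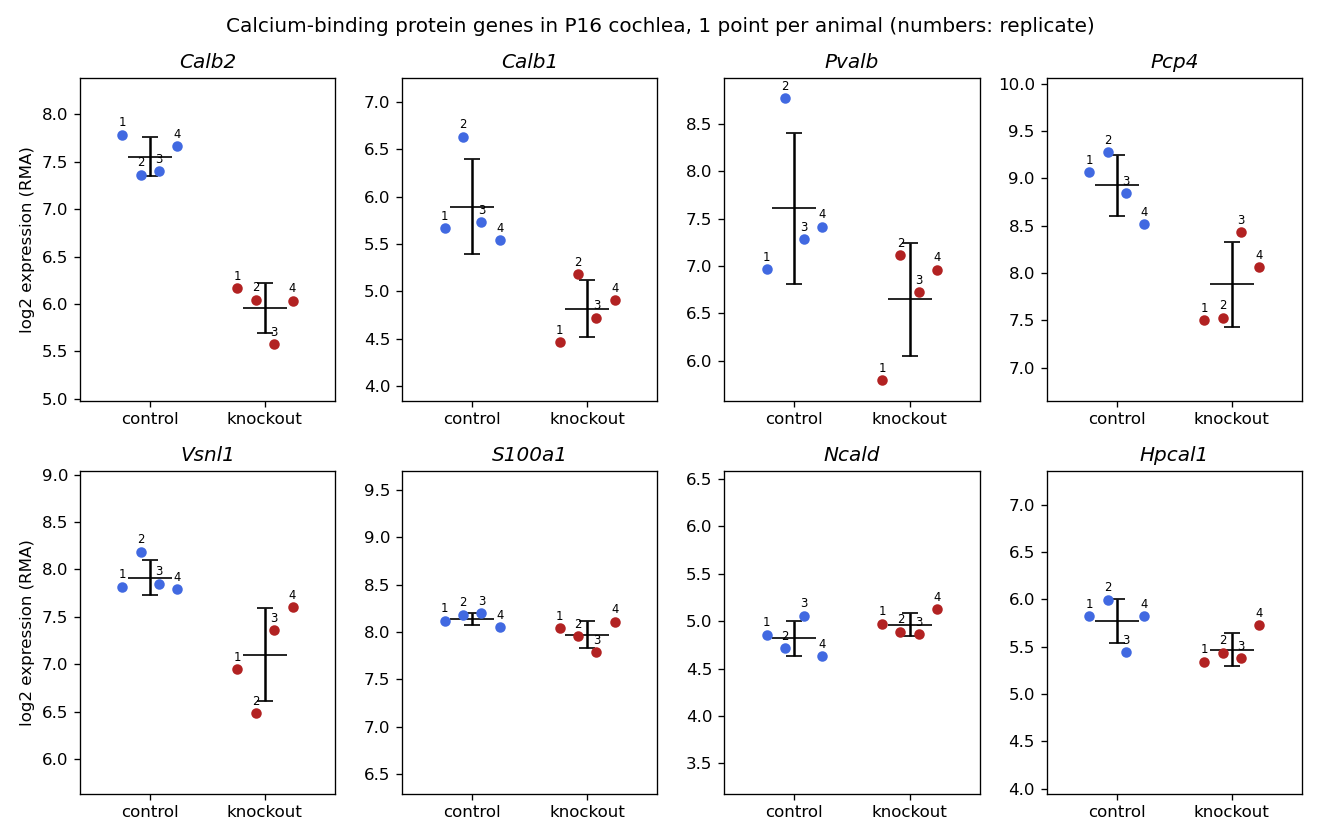
Log2 RMA expression of the 8 genes in each of 4 control (blue) and 4 knockout (red) animals, with the replicate number beside each point and the mean and SD as black bars. Every panel spans the same log2 range. Calb2, Calb1, Pcp4 and Vsnl1 show no overlap between groups, while Pvalb, S100a1, Ncald and Hpcal1 do.

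Calb2 encodes calretinin, a calcium buffer with several EF-hand motifs found in inner hair cells and in a subset of type I spiral ganglion neurons. It read 7.79, 7.36, 7.40 and 7.66 in control replicates 1 to 4 and 6.17, 6.05, 5.58 and 6.03 in knockout replicates 1 to 4. The groups were separated by an empty interval of 1.19, against a spread of 0.42 among control and 0.59 among knockout animals. The mean was 7.55 ± 0.20 in control and 5.96 ± 0.26 in knockout cochlea (SD, n = 4), a difference of -1.60 (SE 0.14) and a level 3.03-fold lower. Among all features, 1 had a lower difference, the muscle myosin gene Myh4. As each array was left out in turn, the difference ran from -1.67 to -1.47.

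Calb1 encodes calbindin-D28k, the close relative of calretinin, which marks another subset of spiral ganglion neurons and some hair cells. It read 5.67, 6.64, 5.73 and 5.54 in control replicates 1 to 4 and 4.46, 5.18, 4.72 and 4.91 in knockout replicates 1 to 4. Control replicate 2 lay well above the other controls, and the highest knockout animal was replicate 2. The groups lay 0.36 apart. The means were 5.90 ± 0.50 and 4.82 ± 0.30 (SD, n = 4), a difference of -1.08 (SE 0.22), 2.11-fold lower. The knockout mean lay below the array medians of 5.10 to 5.28, so it may hold background and the fold is uncertain. Scgn, which encodes the third protein of this group, secretagogin, read 4.23 ± 0.09 in control and 4.31 ± 0.08 in knockout cochlea (SD, n = 4; difference 0.08, limma adjusted p = 0.731), and was at -0.05 after repeated quantile normalization and -0.06 after cyclic loess. Scgn was dim, at percentile 19.1 of mean level, and may hold background alone.

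Pvalb encodes parvalbumin, a slow calcium buffer of hair cells, spiral ganglion neurons and fast-twitch muscle fibres. It read 6.97, 8.77, 7.28 and 7.41 in control replicates 1 to 4 and 5.79, 7.11, 6.72 and 6.96 in knockout replicates 1 to 4. Control replicate 2 was the highest array and knockout replicate 1 the lowest. Knockout replicate 2 lay above control replicate 1, so the groups overlapped. The means were 7.61 ± 0.80 and 6.65 ± 0.59 (SD, n = 4), a difference of -0.96 (SE 0.34). The difference was -0.57 without control replicate 2, its smallest as each array was left out, and -1.17 without control replicate 1. Ocm, the other parvalbumin, which outer hair cells express at high level, read 6.34 ± 0.23 and 6.20 ± 0.42 (SD, n = 4; difference -0.14, limma adjusted p = 0.724).

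Pcp4 encodes PEP-19, a small IQ-motif protein that speeds the exchange of calcium on calmodulin rather than holding calcium itself. It read 9.06, 9.28, 8.84 and 8.52 in control replicates 1 to 4 and 7.50, 7.53, 8.43 and 8.06 in knockout replicates 1 to 4. Knockout replicate 3 came within 0.09 of control replicate 4, and knockout replicates 1 and 2 were the lowest. The means were 8.92 ± 0.32 and 7.88 ± 0.45 (SD, n = 4), a difference of -1.04 (SE 0.20), 2.06-fold lower. After cyclic loess, which removes level-dependent differences between arrays, the difference was -0.89 and the groups overlapped.

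Vsnl1 encodes visinin-like protein 1, a neuronal calcium sensor that moves to membranes through a myristoyl group. It read 7.82, 8.19, 7.85 and 7.79 in control replicates 1 to 4 and 6.95, 6.48, 7.36 and 7.60 in knockout replicates 1 to 4. Its control animals lay close together (SD 0.19), and its knockout animals were spread (SD 0.49). The means were 7.91 and 7.10 (n = 4), a difference of -0.81 (SE 0.20), 1.76-fold lower. The groups lay 0.19 apart as deposited and overlapped after cyclic loess, where the difference was -0.66.

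In the pair of sensors related to Vsnl1 the groups overlapped. Hpcal1, which encodes hippocalcin-like protein 1, read 5.82, 5.996, 5.44 and 5.82 in control replicates 1 to 4 and 5.34, 5.44, 5.38 and 5.72 in knockout replicates 1 to 4. Control replicate 3 lay among the knockout animals, and the difference was -0.41 without it, against -0.30 (SE 0.14) over all arrays. Ncald, which encodes neurocalcin delta, read 4.86, 4.72, 5.06 and 4.63 in control replicates 1 to 4 and 4.98, 4.89, 4.86 and 5.13 in knockout replicates 1 to 4. It is the 1 gene of the 8 with a higher mean in knockout cochlea (0.15, SE 0.13), and that sign turned to -0.25 with signal range, the SD of all log2 values on an array, as a covariate. Leaving out control replicate 4 gave 0.086 and leaving out control replicate 3 gave 0.23. S100a1, which encodes an S100 protein of muscle, neurons and supporting cells, read 8.12, 8.18, 8.20 and 8.05 in control replicates 1 to 4 and 8.04, 7.96, 7.79 and 8.11 in knockout replicates 1 to 4. Its difference of -0.17 (SE 0.10) was -0.10 without knockout replicate 3 and -0.0051 after cyclic loess. After median-centring the S100a1 difference was -0.25 and the groups lay apart, as they did relative to the hair cell markers described below.

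Spread between animals differed among the genes. For each gene the within-group SD was ranked among the features of the same decile of mean level. Pvalb lay at percentile 99.8, Calb1 at 98.9, Pcp4 at 98.3 and Vsnl1 at 97.4, so these 4 genes varied more between animals of 1 genotype than most features of like level. Calb2 lay at percentile 75.0, Hpcal1 at 67.5 and Ncald at 30.2. S100a1 varied least, at percentile 8.50. Differences also depended on level over the whole array, since the median difference was 0.13 in the dimmest decile and -0.21 in the brightest. Pvalb, Pcp4, Vsnl1 and S100a1 belong to the brightest decile. Relative to the median of its own decile, Calb2 was at -1.43, Calb1 at -1.13, Pcp4 at -0.84, Pvalb at -0.75, Vsnl1 at -0.61 and Hpcal1 at -0.32, while S100a1 and Ncald were at 0.04 and 0.06.

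Markers of skeletal muscle moved with several of these genes. All 17 muscle markers were measured, and their mean level was 5.73 to 6.71 in knockout and 6.54 to 8.21 in control animals. A negative difference was found in 15 of 17, against 47.6% of all features. The groups lay apart as lower for 0 of the 17, against 2.65% of all features, and 0 passed the adjusted limma threshold. The list was written with results of these arrays known, so nothing is read from these counts. The muscle marker level was highest in control replicate 2 and lowest in knockout replicate 1. The same animals were highest and lowest for Pvalb and for Calb1. With the muscle marker level as a covariate, the difference was -0.22 (SE 0.17) for Pvalb and -0.63 (SE 0.14) for Calb1. With the same covariate it was -0.83 for Pcp4, -0.68 for Vsnl1 and -1.73 for Calb2. Without knockout replicate 1 and control replicate 2, a choice made after seeing the data, the muscle marker levels of the groups differed by -0.11. Pvalb was then at -0.29 and Calb1 at -0.71, while Calb2 was at -1.73, Pcp4 at -0.80 and Vsnl1 at -0.67. With each gene taken relative to the muscle marker level of its own array, the groups overlapped for all 8 genes, and Calb2 differed by -0.90. That scale subtracts a level that ran from 5.73 to 8.21 over the arrays and itself differed by -0.70. The subtraction can thus bring overlap to a gene that does not follow muscle markers, and nothing is read from that overlap.

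**Figure D2:**
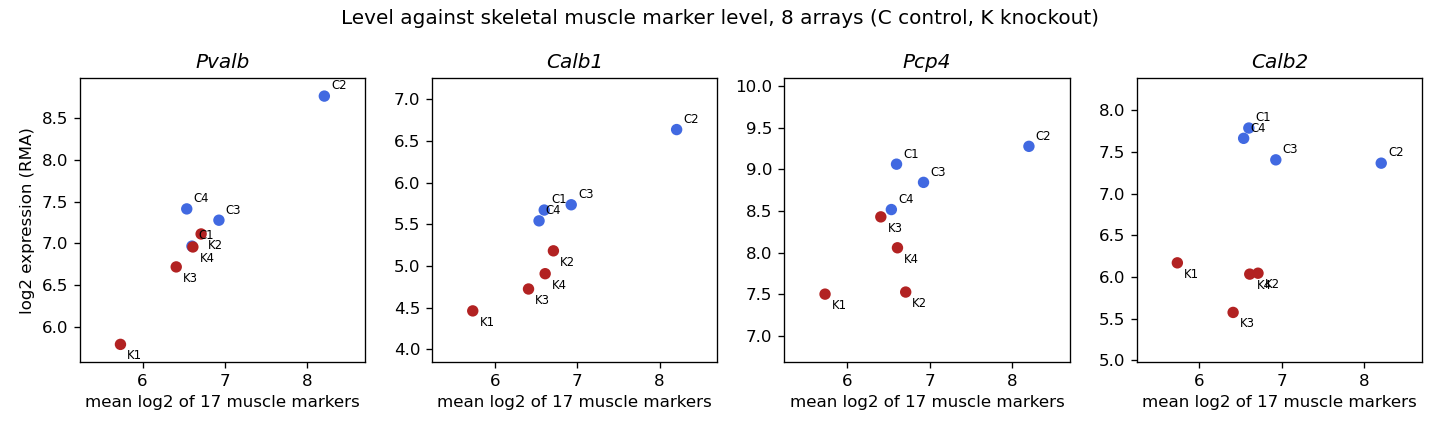
Log2 expression of Pvalb, Calb1, Pcp4 and Calb2 (vertical axes, equal log2 range) against the mean log2 level of 17 skeletal muscle markers (horizontal axis) on 4 control arrays (C, blue) and 4 knockout arrays (K, red). Pvalb and Calb1 are highest in C2 and lowest in K1, at the ends of the muscle axis, whereas Calb2 falls into an upper control and a lower knockout set along it.

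**Figure D3:**
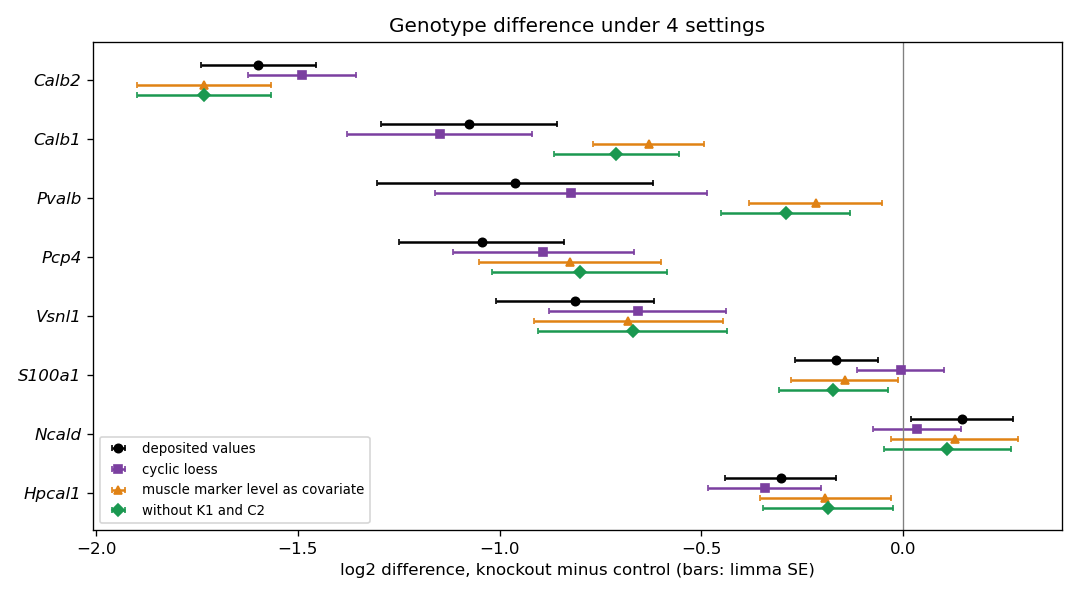
Knockout minus control log2 difference of the 8 genes (horizontal axis, bars limma SE) from the deposited values, after cyclic loess, with the muscle marker level as a covariate, and without knockout replicate 1 (K1) and control replicate 2 (C2). Pvalb moves from -0.96 to -0.22 and Calb1 from -1.08 to -0.63 with the covariate, and Calb2 stays between -1.73 and -1.49.

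The genes with the most similar course over the 8 arrays were found by the root mean square distance between profiles, each taken minus its own mean, among 14524 genes with a mean of at least 5. Calb2 was nearest to Snap25 (distance 0.45), a presynaptic fusion protein gene, Clec2l (0.47) and Fgf12 (0.48), whose product modulates voltage-gated sodium channels. Calb1 was nearest to Tpm2 (0.20), which encodes a tropomyosin, Apobec2 (0.23) and Actn3 (0.24), the alpha-actinin of fast muscle fibres. Pvalb was nearest to Ckm (0.25), Atp2a1 (0.25) and Casq1 (0.26), which encode muscle creatine kinase, the fast-fibre calcium pump and calsequestrin. The profiles nearest to Calb1, a gene known here as a neuronal and hair cell marker, were thus those of muscle-expressed genes. Among the 8 genes, Pcp4 and Vsnl1 lay 0.26 apart, Calb1 and Pvalb 0.31, and Calb1 and Pcp4 0.39. S100a1, Ncald and Hpcal1, whose genotype differences were the smallest of the 8 genes in size, lay close to each other (0.19 to 0.34). The distances rest on 8 arrays and mix the genotype difference with variation inside the groups. They are not scaled, so genes with large falls were favoured as neighbours of Calb2, which was chosen with its difference known. Nothing about shared function is read from them.

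**Figure D4:**
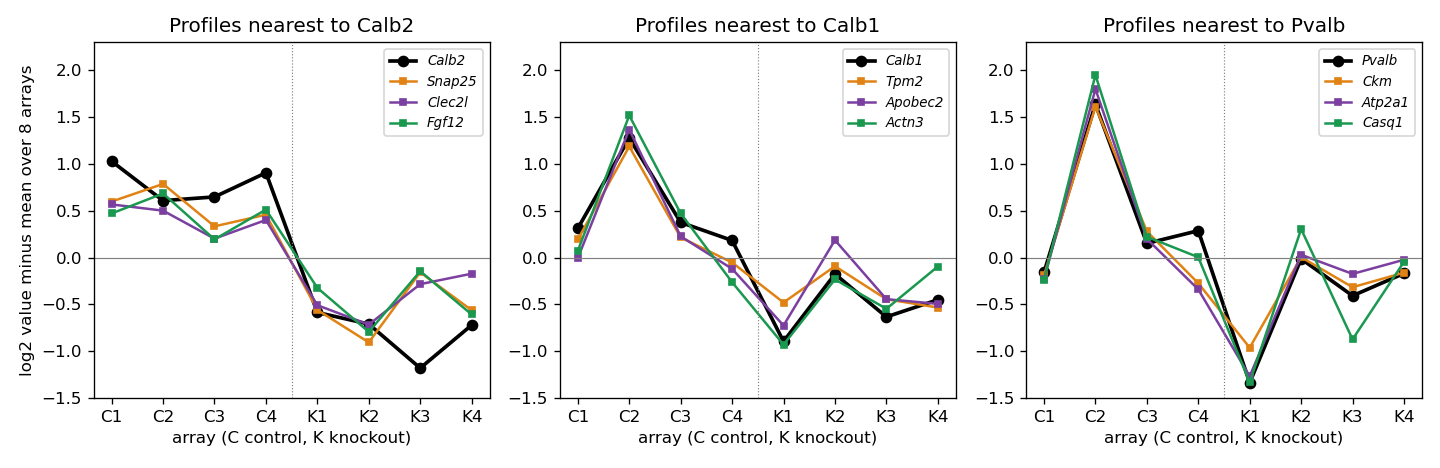
Log2 values minus their mean over 8 arrays (vertical axis) for Calb2, Calb1 and Pvalb (black) and the 3 genes with the nearest profile to each (colours), over control arrays (C) and knockout arrays (K). Calb2 and its neighbours step down between the groups, while Calb1, Pvalb and their muscle-expressed neighbours peak in C2 and have their lowest values in K1 or near it.

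Neuron and hair cell markers were read beside the same genes. The 25 measured spiral ganglion neuron markers of 27 had a mean level of 5.37 to 5.67 in knockout and 5.54 to 5.88 in control animals. A negative difference was found in 18 of 25, against 47.6% of all features. The groups lay apart for 7 of the 25, all lower in knockout animals, against 2.65% of all features. The list was written with results of these arrays known, so nothing is read from these counts. Snap25 fell by 1.09 (limma adjusted p = 0.0389), and the neurofilament genes Nefl, Nefm and Nefh were at -0.91, -0.73 and -0.52 without passing that threshold. These genes had the lowest differences of the 25. Snap25 was not called over all features of the table, with the muscle marker or the signal range covariate, or without control replicate 1. The list also held 7 positive differences, the highest being Gata3 at 0.19 and Gap43 at 0.20, and Syt1 and Isl1 were at -0.03 and -0.01. In bulk tissue, fewer cells of a type and less RNA per cell cannot be told apart. Taken relative to the neuron marker level on the same array, Calb2 differed by -1.40, Pcp4 by -0.85 and Vsnl1 by -0.62, with no overlap between groups. Calb1 differed by -0.88 with overlap. That level was a plain mean of 25 features, down to percentile 15.8 of mean level, and itself differed by only -0.19. Subtracting it therefore cannot show whether these genes fell beyond neuron RNA. The 19 measured hair cell markers of 23 had a mean level of 5.22 to 5.34 in knockout and 5.20 to 5.33 in control animals. That level lay near the array medians of 5.10 to 5.28, and its features went down to percentile 16.7 of mean level. It may hold much background and says little about hair cell RNA. Relative to the hair cell marker level Calb2 differed by -1.59. The inner hair cell genes Otof and Slc17a8, which encode otoferlin and the vesicular glutamate transporter VGLUT3, differed by -0.03 and -0.05, and the lowest of the 19 was Ptprq, a hair bundle phosphatase gene, at -0.45 (limma adjusted p = 0.305). Pou4f1, a transcription factor gene of the spiral ganglion subset that has low calretinin and calbindin, differed by 0.17 (limma adjusted p = 0.543). Its mean level of 4.42 was dim, below the array medians, so its difference says little about that subset. The 13 measured cerebellum and brain markers of 16 had a mean level of 5.15 to 5.34 in knockout and 5.16 to 5.26 in control animals. The part of these other cell types in the differences was not tested.

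S100b, an S100 gene of Schwann cells and other glia, was read beside the myelin markers and the supporting cell markers. S100b read 9.37, 9.29, 9.29 and 9.25 in control replicates 1 to 4 and 9.27, 8.35, 8.28 and 8.95 in knockout replicates 1 to 4. Knockout replicate 1 lay inside the narrow control range, and the others lay below it. The difference was -0.59 (SE 0.18, limma adjusted p = 0.301) and -0.46 after cyclic loess. The 9 measured Schwann cell and myelin markers of 12 had a mean level of 6.11 to 6.36 in knockout and 6.32 to 6.60 in control animals. Knockout replicate 2 was lowest in that level and in Vsnl1, and knockout replicate 3 was lowest in S100b and in S100a1. The 12 supporting cell markers had a mean level of 5.73 to 6.07 in knockout and 5.94 to 6.18 in control animals. Knockout replicate 3 was lowest in that level too. Which cell types the S100b difference came from was not tested.

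Other calcium-binding and calcium-transport genes were read from 8 family lists of 69 genes, of which 64 were measured. In limma 0 of the 64 passed at an adjusted p under 0.05. At an unadjusted p under 0.05 there were 5 lower (7.81%) and 4 higher (6.25%), close to the 7.25% and 7.04% of all features. The smallest limma adjusted p was 0.296, for Chp1. As deposited, 22 of the 64 differences were negative and 42 positive, with a median of 0.04. After cyclic loess 29 were negative and 35 positive, and after median-centring 36 were negative and 28 positive, so no direction is given for the families. The lists were written with results of these arrays known.

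**Figure D5:**
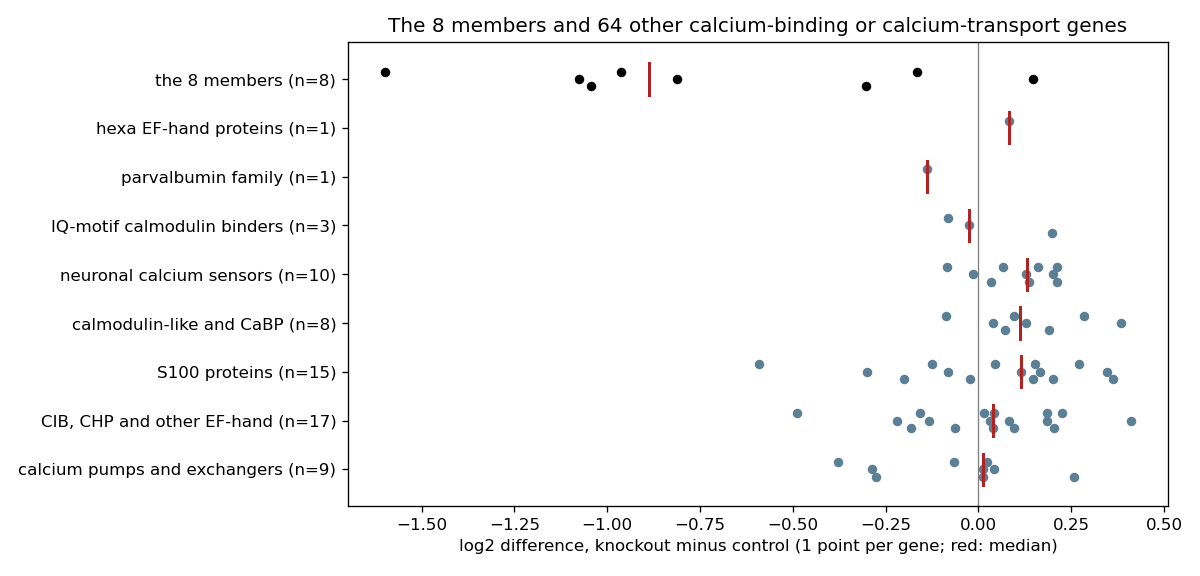
Knockout minus control log2 difference (horizontal axis), 1 point per gene, for the 8 genes described here (black) and for 64 other genes on 8 family lists (blue), with the median of each row in red. The 8 genes reach -1.60, and the other families lie between -0.59 and 0.41.

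Among the 10 other neuronal calcium sensor genes, the lowest differences were those of Ncs1 (-0.08) and Hpcal4 (-0.02), and the highest those of Guca1b and Hpca (both 0.21). Guca1b encodes a guanylate cyclase activator known from photoreceptors and Hpca encodes hippocalcin. Vsnl1, at -0.81, lay outside this range, but it was chosen with this contrast known. Its mean level was also higher, at 7.50, against 4.28 (Guca1a) to 5.96 (Kcnip3) among these sensors. Nothing is therefore read from that contrast with its relatives. Among the IQ-motif calmodulin binders related to Pcp4, Nrgn was at -0.08, Pcp4l1 at -0.03 and Gap43 at 0.20. Pcp4l1, which encodes the closest relative of PEP-19, read 6.77 ± 0.13 in control and 6.74 ± 0.18 in knockout cochlea (SD, n = 4). Among 8 calmodulin-like and CaBP genes, the extremes were Cabp7 (-0.09), Cabp5 (0.04), Calml3 (0.28) and Caln1 (0.38). The groups of Caln1 lay apart, from 4.33 to 4.54 in knockout and from 3.502 to 4.23 in control animals, at a dim level.

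The S100 list of 15 genes ran from S100b at -0.59 and S100a10 at -0.30 to S100a9 at 0.35 and S100z at 0.36. S100a9 encodes a subunit of calprotectin, a neutrophil protein. Among 17 other EF-hand genes, Chp1 was at -0.49 and Sri at -0.22, and Necab3 and Necab1 at 0.23 and 0.41. Chp1 encodes a calcineurin-like protein that binds sodium-proton exchangers, and Necab1 a neuronal calcium-binding protein. Chp1 had groups that lay apart, from 3.31 to 3.72 in knockout and from 3.75 to 4.24 in control animals, at a dim level. Of the 64 family genes, Chp1 was the 1 whose groups lay apart as lower and Caln1 the 1 as higher, against 2.65% and 3.3% of all features. Among 9 calcium pumps and exchangers, Atp2b1, a plasma membrane calcium pump gene, was at -0.38 (limma adjusted p = 0.305) and Atp2a2, the housekeeping pump of the endoplasmic reticulum, at -0.29. Atp2b2, which encodes the pump of hair bundles, was at 0.02, and at the upper end Slc8a3 was at 0.04 and Slc8a2 at 0.26.

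Promoter windows were read for the pair of genes with similar courses, Pcp4 and Vsnl1, since both were lower in knockout animals. RefSeq windows of 300 bases around an annotated start in GRCm38.p6 were held for 5 of the 8 genes. The first windows of this pair are printed with the E-box CANNTG, a motif of basic helix-loop-helix factors, in capitals. They lie at chr16:96467356-96467655 on the plus strand for Pcp4 and at chr12:11436529-11436828 on the minus strand for Vsnl1.
Pcp4: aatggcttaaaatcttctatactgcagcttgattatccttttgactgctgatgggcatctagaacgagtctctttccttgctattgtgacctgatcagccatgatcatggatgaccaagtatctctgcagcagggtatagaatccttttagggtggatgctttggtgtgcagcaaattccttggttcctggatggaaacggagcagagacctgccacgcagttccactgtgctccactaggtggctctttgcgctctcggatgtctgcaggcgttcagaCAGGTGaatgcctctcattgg
Vsnl1: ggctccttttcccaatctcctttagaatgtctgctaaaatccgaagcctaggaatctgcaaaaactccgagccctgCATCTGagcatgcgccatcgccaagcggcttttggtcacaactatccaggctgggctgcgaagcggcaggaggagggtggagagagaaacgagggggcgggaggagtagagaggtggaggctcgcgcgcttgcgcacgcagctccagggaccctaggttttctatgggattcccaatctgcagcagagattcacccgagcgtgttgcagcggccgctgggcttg
Each window held 1 E-box, and 72.3% of 32851 promoter windows of the same length held at least 1. The CRE motif TGACGTCA, searched on both strands like the E-box, was in neither, and 1.79% of all windows held it. These matches describe letters in the windows.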

How the data were processed

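RNA of both cochleae of each animal was hybridised to Affymetrix Mouse Gene 2.0 ST arrays, 1 array per animal. Per the labels and the submitters' notes on processing, the deposited log2 values were made by the authors with Affymetrix Expression Console, as a gene-level RMA. Its version and the build behind the array are not stated by the sources used here. That the scale is log2 follows from the values themselves (0.90 to 13.5). The table held 41345 features, of which 23521 had exactly 1 symbol in the platform annotation. A gene with several features was represented by the one with the highest mean.

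The genotypes were compared with limma 3.58.1 in R 4.3.3 (lmFit and eBayes with an intensity trend, genotype only), with Benjamini-Hochberg adjustment over the 23521 features. The steps were tested on simulated data. No detection call was used, so a dim feature may hold background alone. Precision is limited by the number of arrays.

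The members and lists were chosen with earlier results of these data known. Named genes were the 8 genes, the targeted cluster, the 2 lowest and 2 highest differences of each family list, and the 3 nearest profiles to Calb2, Calb1 and Pvalb. Marker genes, Myh4 among them, and Atp2b2 were named outside that rule, after their values were seen. Sequences are from RefSeq.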

Additional observations from a re-analysis of the deposited data

Results flagged for a closer look

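Vsnl1 had 1 animal apart from its group. Control replicate 2 read 8.19, while the other 3 control animals lay between 7.79 and 7.85. Of 16 groups of 4 animals examined over the 8 genes, this was the 1 in which a single animal stood apart from the rest beyond the critical gap, and chance gives about 1 in 20. Control replicate 2 was also the highest control in Calb1 (6.64, others 5.54 to 5.73) and in Pvalb (8.77, others 6.97 to 7.41). Relative to the spread of their groups, those values stayed short of the critical gap. The same animal also had the highest muscle marker level, 8.21. Without it the Vsnl1 difference was -0.72.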

How the results depend on the processing

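The alternatives were 10 other settings of the fit, 3 marker-relative scales and leaving out each array. The count of called features was 3, and it was 1 over all features of the table, 0 with signal range as a covariate and 1 with the muscle marker covariate. It ran from 1, without control replicate 1, to 21, without control replicate 3. The calls were 3 lower and 0 higher as deposited, and 5 lower and 16 higher without control replicate 3. Calb2, not called in the signal range setting, was at -1.45 there (SE 0.26). Relative to the skeletal muscle markers the differences were -0.90 for Calb2, -0.37 for Calb1, -0.26 for Pvalb, -0.34 for Pcp4, -0.11 for Vsnl1, 0.54 for S100a1, 0.85 for Ncald and 0.40 for Hpcal1, because that scale subtracts a marker level that itself differed by -0.70. With the muscle marker covariate Calb1 was at -0.63 and Pvalb at -0.22. With the signal range covariate Hpcal1 was at -0.049, Ncald at -0.25 and S100a1 at -0.32. S100a1 was at -0.030 after repeated quantile normalization, -0.0051 after cyclic loess and 0.029 relative to the neuron markers, where Ncald was at 0.34. The cause of these shifts was not tested. The remaining differences of the 8 genes moved by less than the pooled SD between animals, as did all 64 with 1 array left out. No gene had a second feature to try, and Ncald has no value with a mean of at least 5. Among the other calcium-binding genes 0 were called in each setting. Same-numbered animals deviated together at correlations of -0.29 to 0.21, and 2 of 8 arrays correlated best with their own number. The numbers were thus not used as pairs, though so few arrays cannot exclude a pairing. With the replicate number as a block 3 features were called, 2 lower and 1 higher. The block lowered the SE from 0.34 to 0.18 for Pvalb and from 0.22 to 0.14 for Calb1. It also lowered the SE for Calb2 and Hpcal1 and raised it slightly for Pcp4, Vsnl1, S100a1 and Ncald.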
